A study of Homo sapiens with 8 samples.

Results

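MYC and 32 genes of ribosome biogenesis and growth were examined in MonoMac 6 cells, a human monocytic leukaemia line kept in culture. The members were the rows of the deposited table whose symbol was on a list of 33 names, and all 33 were found among its 11530 genes. The study compared 4 libraries of cells given 100 ng/mL of human APRIL for 24 h with 4 control libraries without it. APRIL, the product of TNFSF13, is a secreted ligand of the tumour necrosis factor family. All cells were grown in RPMI, and the series text adds unnamed baseline cytokines in both arms. The labels call the medium of the treated cells free of serum, while the growth protocol gives 10% fetal bovine serum and leaves the control medium unspecified, so APRIL and a change of serum cannot be told apart. The libraries carry numbers only, with no statement on separate cultures, so each p-value measures the spread between libraries, which may be technical. Column headers give the group without a number, and columns are therefore counted from left to right within a group, as A1 to A4 for APRIL columns 1 to 4 and C1 to C4 for control columns 1 to 4.

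MYC is a transcription factor that, paired with MAX, binds the E-box and raises the output of genes needed for growth. Ribosome biogenesis takes place in the nucleolus. RNA polymerase I transcribes the ribosomal RNA precursor there, small nucleolar ribonucleoproteins (snoRNPs) guide its modification, and separate sets of assembly factors build the small and the large subunit. Many of these genes are textbook MYC targets, and MYC is highly active in many acute leukaemias.

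The E-box CACGTG reads the same on both strands, and it was searched in RefSeq promoters (GRCh38.p14), each running from 250 bases before a start site to 50 bases from it. Promoters were matched for 26 of the 33 members, in 32 windows. BOP1, MYC, NOLC1, NOP58, RRP12, RRP1B and RRS1 had no entry. At least 1 window held CACGTG in 11 of the 26 members (42.3%), against 13.3% of 8664 tested genes and 8.77% of 27305 genes with an entry. By window the shares were 34.4%, 9.74% and 7.26%. The members carried 12 matches in all. In 10 of the 11 members a match began within 35 bases of the start site, between 29 bases before it and 35 bases after it. SRM held its only match 199 bases before the start. A match is a run of letters and no evidence of binding. The promoters below belong to the 2 members with the most positive change among those with a match near the start (RRP9, MRTO4), the 2 with the most negative (UTP20, WDR43), and ODC1, the only member with 2 matches in a window, and capitals mark CACGTG. Each line gives 100 bases before the start site and 30 from it, 5′ to 3′ on the strand of the gene.
RRP9 promoter (chr3:51941875-51942004, minus strand): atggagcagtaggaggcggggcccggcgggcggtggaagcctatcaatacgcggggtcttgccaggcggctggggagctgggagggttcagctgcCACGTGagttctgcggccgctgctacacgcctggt
MRTO4 promoter (chr1:19251705-19251834, plus strand): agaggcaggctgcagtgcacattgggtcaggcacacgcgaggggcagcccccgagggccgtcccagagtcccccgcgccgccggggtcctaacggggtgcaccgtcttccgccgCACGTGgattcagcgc
UTP20 promoter (chr12:101280005-101280134, plus strand): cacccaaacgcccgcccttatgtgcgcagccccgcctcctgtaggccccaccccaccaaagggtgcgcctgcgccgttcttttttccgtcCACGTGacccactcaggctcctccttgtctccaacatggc
WDR43 promoter (chr2:28894567-28894696, plus strand): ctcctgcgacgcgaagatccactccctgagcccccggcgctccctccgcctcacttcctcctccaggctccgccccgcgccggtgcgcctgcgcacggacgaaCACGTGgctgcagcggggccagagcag
ODC1 promoter (chr2:10447983-10448112, minus strand): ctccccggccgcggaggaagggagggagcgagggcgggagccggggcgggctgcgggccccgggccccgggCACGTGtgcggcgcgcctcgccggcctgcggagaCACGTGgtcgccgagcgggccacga

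Values are log2 levels scaled by the authors, and a change is APRIL minus control with its standard error (SE) from limma, 4 libraries per group. The 33 members were all tested, as each exceeded the floor on low values. None passed limma's adjusted threshold of 0.05, where 0 of 11257 tested genes did (0%), and the smallest adjusted p of a member was 0.4. At an unadjusted p under 0.05 there were 3 members, WDR74 higher and NCL and WDR43 lower, where 1344 of all tested genes had one (11.9%, with 6.25% higher and 5.69% lower). On whole reads recovered from the values, voom called 0 of 10788 genes, with 1210 at an unadjusted p under 0.05 (11.2%). Among these were WDR43, WDR74 and SRM, of the 28 members in voom, which NCL could not enter. The groups did not overlap for 3 members, MRTO4 with APRIL wholly above control and NCL and WDR43 wholly below, where 7.81% of all tested genes were without overlap (3.62% above and 4.19% below). Changes were positive in 17 members and negative in 16, a median of 0.0058 beside -0.0053 over all tested genes, of which 49.3% were positive. These member counts lay close to the shares of all genes and are not a result about the members. The count of 3 changed with single libraries. Leaving out A2 gave 10 members at an unadjusted p under 0.05 in limma (20% of all genes). Leaving out A3 gave 1 (9.28%) and leaving out A4 gave 1 (5.94%), NCL in both. Leaving out C1 gave 0 (4.5%) and leaving out C3 gave 0 (7.22%). Without A1, C2 or C4 there were 2 each (10.2%, 9.38% and 10.8%).

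In this bulk RNA, fewer cells expressing a gene and less RNA per cell cannot be told apart. Reads recovered from the deposited values summed to between 916606 in A3 and 5248644 in A2. The lowest of the 8 scaling factors in the header, 0.875, belonged to A3 as well. Among the 28 members with recovered reads, the reads per library ran from 16 (UTP20 in A3) to 3019 (NOP56 in A2). Of the 33 members, 15 had their highest and 14 their lowest value in A3, and 8 and 11 in C1. The same count was not made over all tested genes, so it is not a result about the members. A3 and C1 stood apart, and the change of each named gene without both is given beside its value. They were picked for their extreme values, so a smaller change without them follows in part from that choice. Monocyte and myeloid markers were present (13 of 14 tested, among them CD14, CD33, LYZ and SPI1), with a summed log2 level of 10.84 to 11.25 with APRIL and 10.85 to 10.94 in control. T cell and NK cell markers had 2 of 7 (CD8A and NKG7, summed at 10.86 to 12.20 with APRIL and 10.75 to 10.93 in control). The median change was 0.23 for these 2 markers and 0.19 for the myeloid markers. Without A3 it was 0.10 and 0.09. With each library's trends over transcript length and GC content removed it was -0.06 and -0.05. The scale of the values differs between genes, so the sums of different lists cannot be compared and do not rank cell types. CD68, CD3D, CD3E, CD3G, CD2, KLRD1, 6 erythroid markers and 8 markers of fibroblasts, epithelium and endothelium had no row in the deposited table. They could not be analysed, and which gene filter left them out is not known. The part of marker differences in the results was not tested.

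**Figure D1:**
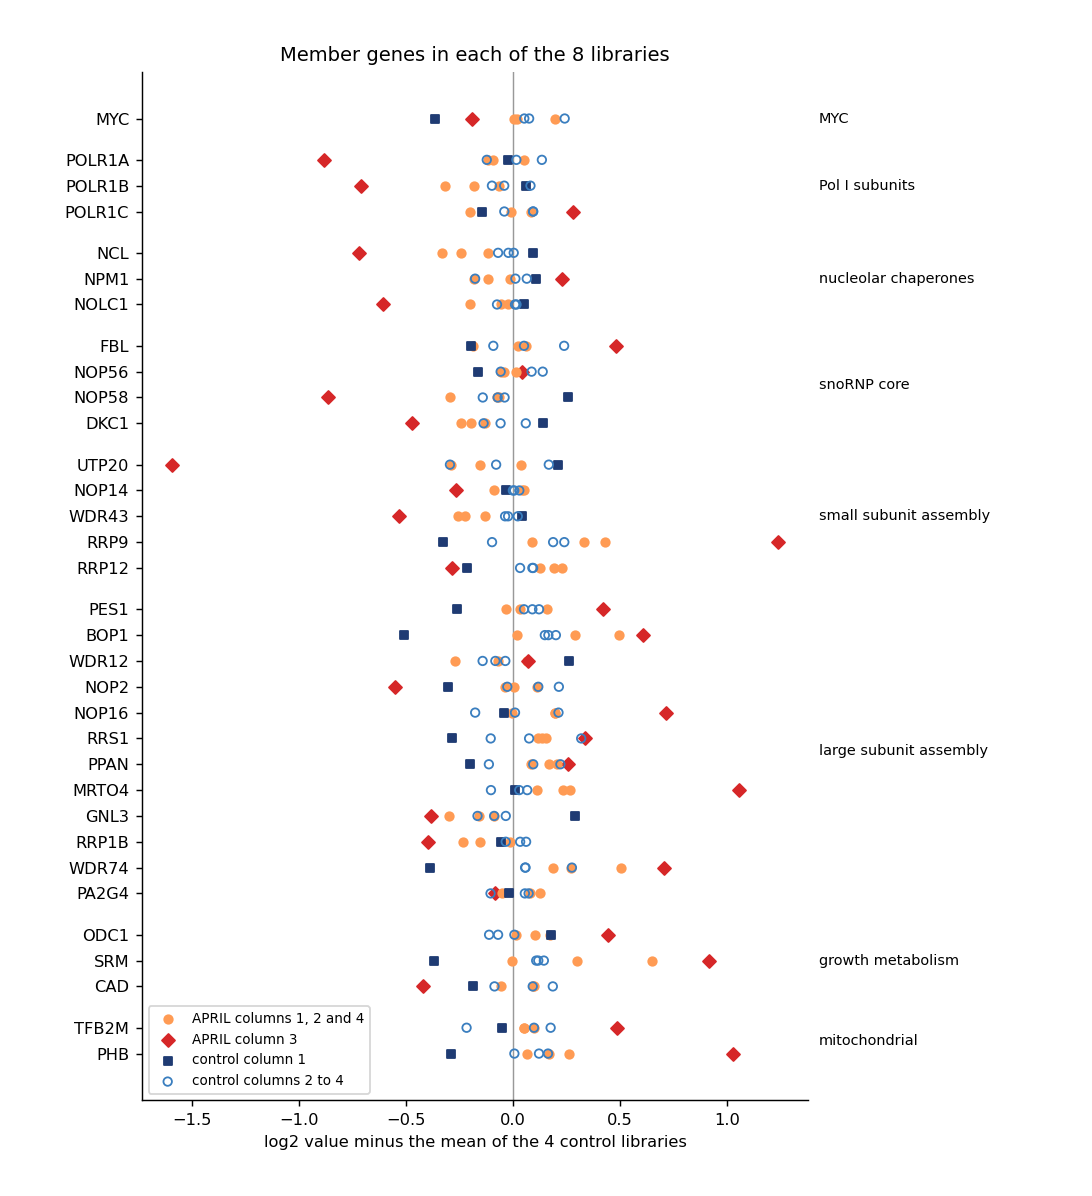
Log2 value of each of the 33 members in each of the 8 libraries, minus the mean of the 4 control libraries (x axis), ordered by role. Orange circles are A1, A2 and A4, red diamonds A3, filled squares C1 and open circles C2 to C4. A3 holds the highest or lowest value of 29 members.

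MYC itself had nearly the same mean level in both groups. In the order A1 to A4 its level was 9.54, 9.53, 9.33 and 9.72, and in the order C1 to C4 it was 9.16, 9.60, 9.57 and 9.76. The lowest library was C1 and the highest C4, so the APRIL values lay inside the control range. The means were 9.53 ± 0.16 with APRIL and 9.52 ± 0.26 in control (SD, n = 4). Its change was 0.01 ± 0.15, with a 95% interval of -0.33 to 0.34 and adjusted p = 0.986 in limma, and with each library centred on its median it was -0.0034. The reads behind these values numbered 1464, 2736, 375 and 1843 with APRIL and 813, 734, 984 and 1782 in control. Without C1 the change was -0.12, and without that library and A3 it was -0.05.

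RNA polymerase I was represented by its largest subunit POLR1A, its second largest POLR1B and POLR1C, a subunit shared with RNA polymerase III. POLR1A stood at 8.91, 9.08, 8.15 and 8.94 with APRIL and at 9.01, 9.17, 9.05 and 8.91 in control. Only A3 was below the control range, and the change was -0.26 ± 0.19, or -0.05 without that library and -0.06 without A3 and C1. POLR1B stood at 7.66, 7.77, 7.13 and 7.52 with APRIL and at 7.90, 7.92, 7.80 and 7.74 in control. Here 3 of the 4 APRIL libraries lay below all control libraries, with a change of -0.32 ± 0.15 (limma adjusted p = 0.4) and -0.17 without A3 and C1. POLR1C had a change of 0.04 ± 0.14 (-0.09 without A3 and C1), with A3 as its highest library at 5.08. Thus the 2 catalytic subunits were lowest in A3 and the shared subunit highest there.

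The 3 abundant nucleolar proteins had negative changes. NCL encodes nucleolin, an abundant RNA-binding protein of the nucleolus, and it had the smallest unadjusted p of the 33 members. Its levels were 10.89, 11.01, 10.41 and 10.80 with APRIL and 11.22, 11.06, 11.13 and 11.11 in control. All 4 APRIL libraries were lower than every control library, although A2 came close to C2. The change was -0.35 ± 0.14 (a fold of 0.783, unadjusted p = 0.0256, limma adjusted p = 0.4), and it was -0.20 without A3 and C1. NCL was negative under each library left out, from -0.43 to -0.23. NOLC1, a chaperone of snoRNPs in the nucleolus and Cajal bodies, stood at 10.44, 10.46, 9.88 and 10.29 with APRIL and 10.54, 10.50, 10.51 and 10.42 in control. Its change of -0.22 ± 0.14 became -0.08 without A3 and C1. NPM1, nucleophosmin, a nucleolar chaperone whose gene is often mutated in acute myeloid leukaemia, had a change of -0.02 ± 0.12, with a 95% interval of -0.28 to 0.24, and -0.07 without A3 and C1. Its 4 APRIL values ran from 12.84 to 13.25 and its control values from 12.84 to 13.13. GENCODE 29 names 45 pseudogenes of NPM1, 5 of them rows of the deposited table, so its reads may be shared with near-identical copies and its value is uncertain. It names 2 of NCL, 3 of NOP56, 2 of PES1 and 2 of SRM, of which 0 are rows of that table. Whether these copies share reads was not tested.

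Among the core proteins of snoRNPs, FBL, NOP56 and NOP58 form the box C/D particle, with FBL (fibrillarin) as its methyltransferase, and DKC1 (dyskerin) is the pseudouridine synthase of the box H/ACA particle. DKC1 stood at 9.54, 9.61, 9.27 and 9.49 with APRIL and at 9.88, 9.60, 9.80 and 9.68 in control. The groups overlapped by 1 library, C2, which lay just under A2. The change of DKC1 was -0.26 ± 0.12 (unadjusted p = 0.0513, limma adjusted p = 0.4), between -0.31 and -0.19 with each library left out and -0.14 without A3 and C1. In the authors' deposited table DKC1 had a p-value of 0.0349, NCL 0.0386 and WDR43 0.0176, and these were the 3 members under 0.05 there, where 8.52% of genes were. NOP56 and NOP58, 2 related proteins of one particle, were at -0.01 ± 0.11 and -0.33 ± 0.19. NOP58 stood at 4.91, 4.92, 4.13 and 4.69 with APRIL and 5.24, 4.92, 4.95 and 4.85 in control, so A3 was its lowest library. Without A3 and C1 the pair was at -0.08 and -0.06. FBL had a change of 0.09 ± 0.17 and was highest in A3 at 6.88, and without these 2 libraries it was at -0.10.

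The small subunit factors were divided. RRP9, a protein specific to the U3 snoRNP, had the most positive change of all members. It stood at 6.07, 5.83, 6.97 and 6.17 with APRIL and at 5.41, 5.64, 5.98 and 5.92 in control. A3 was far above the rest and A2 lay inside the control range. The change was 0.52 ± 0.24 (limma adjusted p = 0.4), and 0.17 without A3 and C1. UTP20, a large scaffold protein of the small subunit processome, had the most negative change. Its levels were 5.27, 5.47, 3.84 and 5.14 with APRIL and 5.64, 5.35, 5.60 and 5.13 in control, and the lowest rested on 16 reads. The change of -0.50 ± 0.32 became -0.14 without A3 and -0.07 without A3 and C1. WDR43, a member of the same early processome, stood at 5.82, 5.91, 5.51 and 5.79 with APRIL and 6.09, 6.01, 6.02 and 6.07 in control. Each APRIL library was lower than each control library, and the 4 control values lay close together. Its change was -0.29 ± 0.13 (unadjusted p = 0.0466, limma adjusted p = 0.4), and -0.19 without A3 and C1. NOP14 and RRP12, factors of early and late small subunit assembly, had changes of -0.07 ± 0.11 and 0.06 ± 0.14, with groups that overlapped. Without A3 and C1 they were at -0.01 and 0.11.

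Of the 12 large subunit factors, 8 had a positive and 4 a negative change, with a median of 0.16. That median was 0.07 without C1, 0.04 without A3 and C1, and turned to -0.05 once each library's trends over transcript length and GC content were removed. MRTO4, a placeholder that occupies the stalk site of the pre-60S particle until the ribosomal protein P0 arrives, stood at 7.09, 6.94, 7.88 and 7.06 with APRIL and 6.84, 6.86, 6.72 and 6.89 in control. The 4 APRIL libraries were above the 4 control libraries, 3 of them closely, and A3 stood far above the other APRIL libraries. Its change was 0.42 ± 0.20 (limma adjusted p = 0.4), and 0.21 without A3 and C1. WDR74, which works with the ATPase NVL on the nucleolar pre-60S particle, stood at 7.08, 7.17, 7.60 and 7.40 with APRIL and 6.51, 6.96, 6.95 and 7.17 in control. C4 was higher than A1 and level with A2, so the groups overlapped. The change of WDR74 was 0.42 ± 0.17 (unadjusted p = 0.0368, limma adjusted p = 0.4), and 0.19 without A3 and C1.

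PES1, BOP1 and WDR12 form the PeBoW complex, which the large subunit needs for rRNA processing, and they had changes of 0.14 ± 0.14, 0.35 ± 0.19 and -0.05 ± 0.13. BOP1 stood at 7.16, 6.89, 7.47 and 7.36 with APRIL and 6.36, 7.07, 7.03 and 7.02 in control. C1 was its lowest library, and its change was 0.18 without that library and 0.10 without A3 as well. PES1 and WDR12 then stood at -0.04 and -0.005. NOP16, RRS1 and PPAN, further pre-60S factors, had changes of 0.27 ± 0.17, 0.19 ± 0.16 and 0.18 ± 0.13, and of 0.11, 0.04 and 0.08 without A3 and C1. The rRNA methyltransferase NOP2, the GTPase GNL3 (nucleostemin) and RRP1B had changes of -0.12 ± 0.18, -0.23 ± 0.14 and -0.20 ± 0.13, and of -0.08, -0.09 and -0.15 without A3 and C1. PA2G4, a growth regulator found on pre-ribosomes, was at 0.02 ± 0.12, and at 0.04 without these 2 libraries. Its value is uncertain, as 2 of its 5 named pseudogenes are rows of the deposited table. In each of these 7 genes the groups overlapped. GNL3 was highest in C1 at 5.86 and otherwise ran from 5.19 to 5.54. The kit does not mark strand, and 6 members (GNL3, MRTO4, NOP14, NOP16, POLR1C and WDR12) have exons overlapping a gene of the table on the other strand, so part of their reads may belong to that neighbour. PPAN shares exons with P2RY11 on its own strand. WDR74 overlaps TEX54 and the small nuclear RNA gene RNU2-2P on its own strand, and further members overlap genes that have no row in the table. Whether these share reads with the members was not tested.

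Genes of growth metabolism were ODC1, the first and rate-limiting enzyme of polyamine synthesis, SRM, the spermidine synthase that follows it, and CAD, which starts pyrimidine synthesis. SRM stood at 5.71, 5.41, 6.33 and 6.06 with APRIL and at 5.05, 5.56, 5.52 and 5.53 in control. A2 lay under 3 control libraries, and C1 was lowest. The change was 0.46 ± 0.21 (a fold of 1.38, unadjusted p = 0.0523, limma adjusted p = 0.4), and 0.19 without A3 and C1. ODC1 stood at 10.44, 10.37, 10.71 and 10.28 with APRIL and at 10.44, 10.27, 10.15 and 10.20 in control. Its change was 0.18 ± 0.12, and 0.16 without A3 and C1. CAD had a change of -0.07 ± 0.15 (-0.02 without A3 and C1), its lowest library being A3 at 6.77. Of the 2 mitochondrial members, PHB (prohibitin, a scaffold of the inner membrane) stood at 12.34, 12.15, 13.11 and 12.25 with APRIL and 11.79, 12.09, 12.20 and 12.24 in control. The change of 0.38 ± 0.20 was 0.07 without A3 and C1. GENCODE 29 names 21 pseudogenes of PHB, of which 0 are rows of the deposited table, and whether they share its reads was not tested. TFB2M, a factor of mitochondrial transcription, had a change of 0.17 ± 0.15, and 0.05 without A3 and C1.

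**Figure D2:**
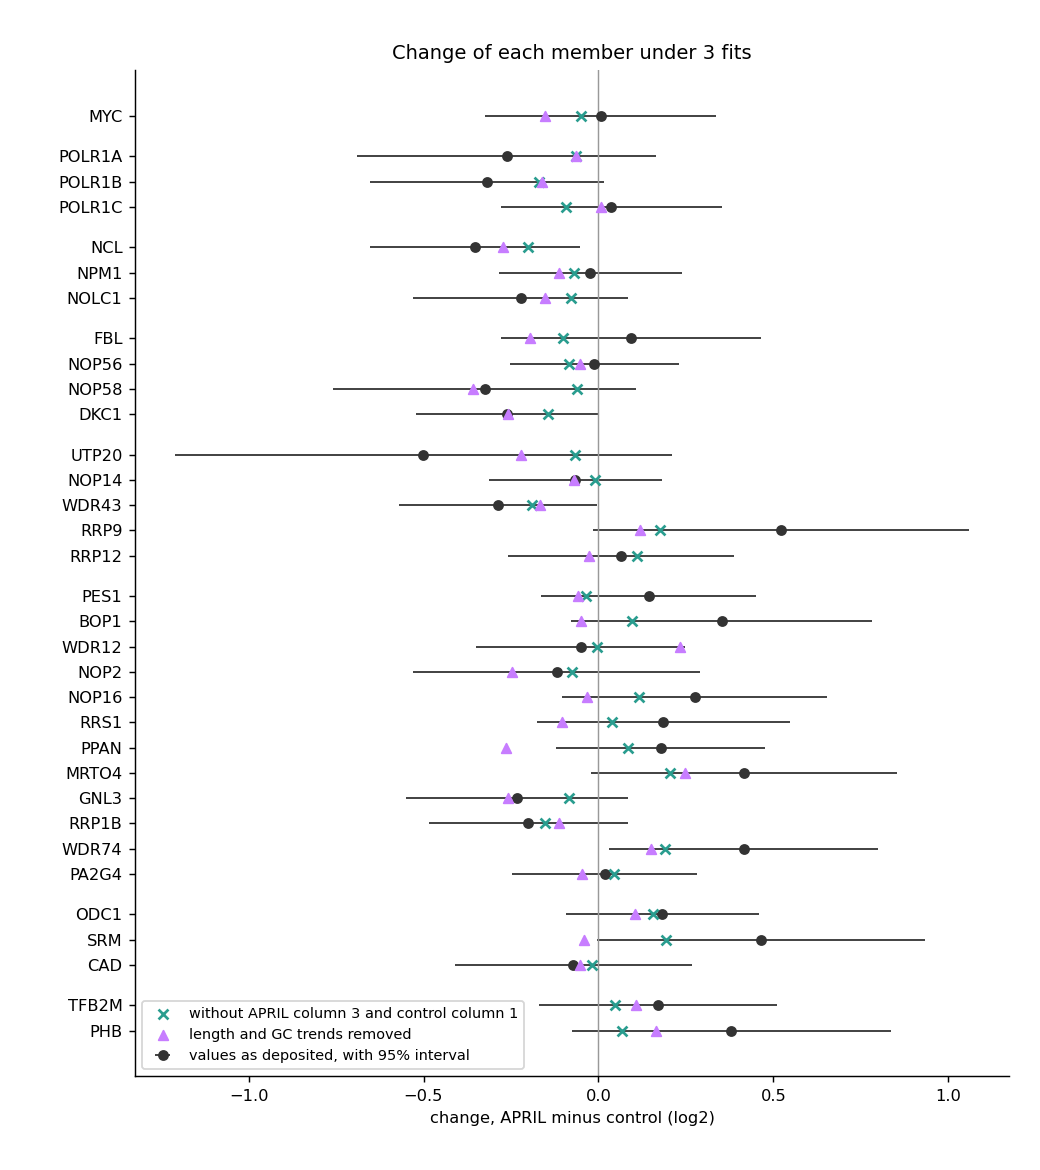
Change of each member on the log2 scale (x axis, APRIL minus control). Circles with lines are the values as deposited with their 95% interval, crosses leave out A3 and C1, and triangles have the length and GC trends removed. Circles reach from -0.50 (UTP20) to 0.52 (RRP9), and crosses stay between -0.20 (NCL) and 0.21 (MRTO4).

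The change of a member went with the length and GC content of its transcript. With the longest GENCODE 29 transcript taken for each gene, Spearman's rho over the 33 members was -0.71 between change and length, beside -0.54 over 10809 tested genes. Between change and GC content it was 0.67 over the members and 0.51 over those genes. These are descriptions across genes, which share the same 8 libraries. Of the 16 members longer than the members' median of 2577 bases, 3 were positive and 13 negative (median -0.16). The 3 were RRP12, PES1 and ODC1. Of the 17 others, 14 were positive and 3 negative (median 0.18). The 3 were NPM1, NOP58 and GNL3, transcripts with a GC content of 43.3%, 41.2% and 41.4%. RRP9, at 1578 bases and 60.9% GC, and SRM, at 1266 bases and 63.7% GC, lay at the short and GC-rich end. UTP20, at 9025 bases and 42.3% GC, and POLR1A, at 12749 bases, lay at the long end.

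**Figure D3:**
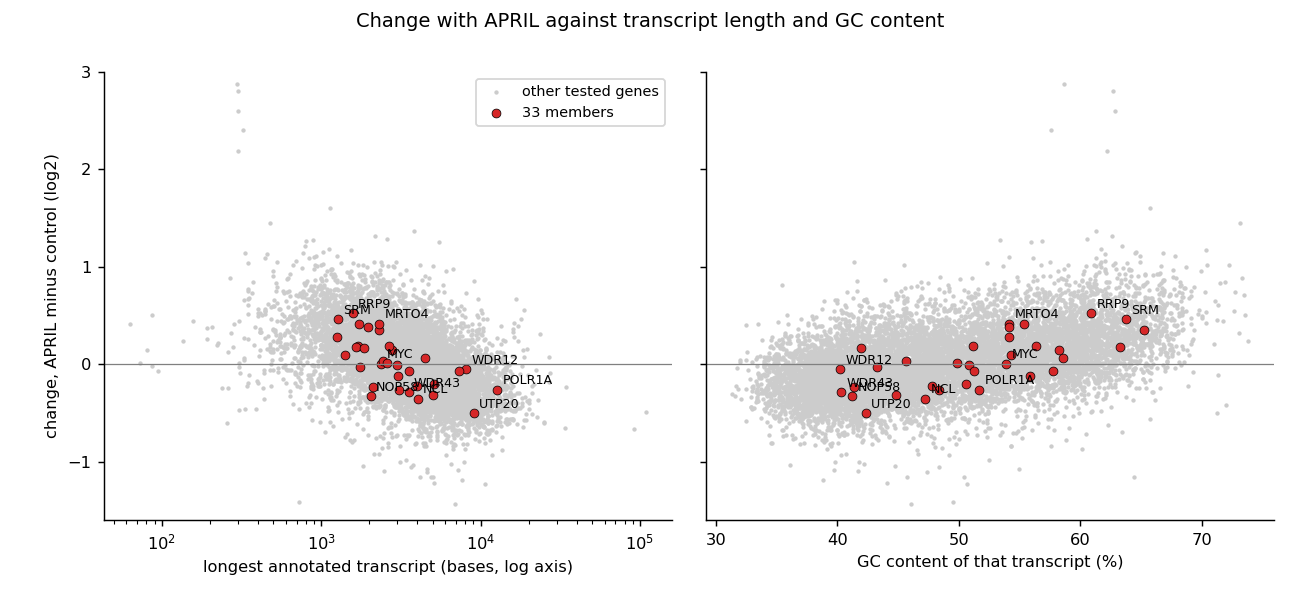
Change of each tested gene (y axis, log2, APRIL minus control) against the length of its longest annotated transcript (left, log axis) and the GC content of that transcript (right). Grey points are tested genes and red points the 33 members, which lie inside the grey cloud and follow its slope (rho = -0.71 with length and 0.67 with GC content).

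The same trend separated single libraries. In A3 the longer members had a median deviation from their gene means of -0.36 and the shorter members one of 0.40. In C1 the order was turned, at 0.10 and -0.24. A2, a treated library, stood with the controls at 0.08 and -0.10, and A1 and A4 were at -0.02 and 0.06 and at -0.07 and 0.04. Across the 33 members, deviation went with length at rho = -0.75 in A3 and 0.69 in A2, and with GC content at 0.84 in A4 and -0.87 in C1. Over 10809 tested genes rho with length was -0.56 in A3 and 0.41 in A2. With GC content it was 0.65 in A4 and -0.74 in C1 there, so the trend was not particular to the members. Without A3 and C1 the medians of the longer and shorter members were -0.07 and 0.05. The part of RNA quality or library preparation in this trend was not tested.

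**Figure D4:**
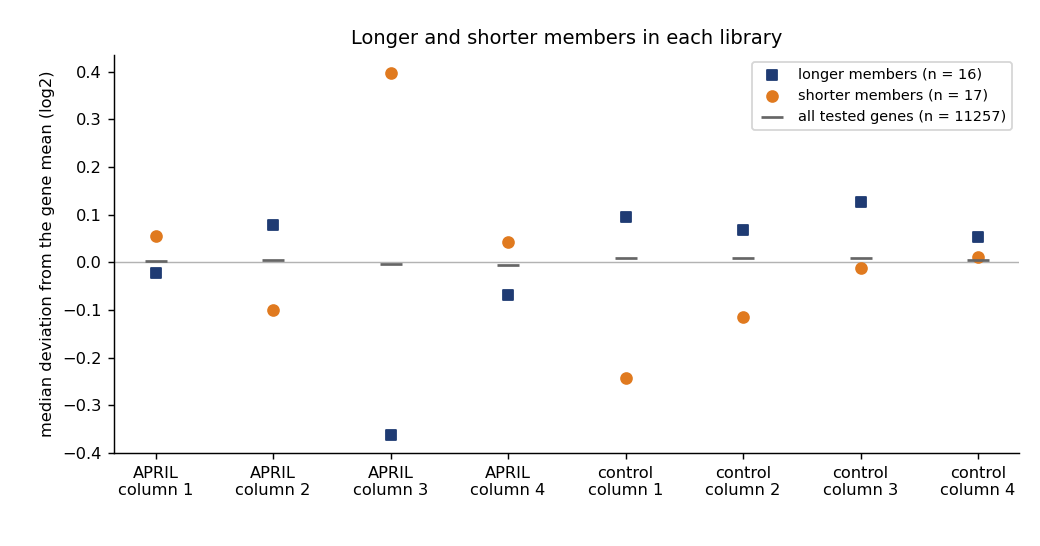
Median deviation from the gene mean (y axis, log2) in each of the 8 libraries (x axis), for the 16 longer members (squares), the 17 shorter members (circles) and all 11257 tested genes (dashes). The tested genes were not split by length. The 2 sets are farthest apart in A3, at -0.36 and 0.40, and A2 shows the order of the controls.

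With each library's trend with length and GC content removed, which was possible for all 33 members, 25 changes were negative and 8 positive, where 52.5% of all genes were negative. The median was -0.065, beside -0.012 over all genes. After removal, rho of the members' change was -0.17 with length and 0.25 with GC content, beside -0.026 and -0.0004 over 10809 tested genes. The members were thus not wholly free of the trend. Whether the longest transcript is the one expressed in these cells was not tested. No member passed limma's adjusted threshold (smallest adjusted p of a member 0.571). At an unadjusted p under 0.05 in limma were NCL at -0.27 (unadjusted p = 0.0116) and DKC1 at -0.26 (unadjusted p = 0.0231), where 8.27% of all genes were. DKC1 thus stood where it had been, and NOP58 went from -0.33 to -0.36. The snoRNP core proteins were all negative in that fit, with FBL at -0.20 and NOP56 at -0.05. MYC was at -0.15. Of the members with the highest deposited changes, RRP9 was then at 0.12, SRM at -0.04, MRTO4 at 0.25, WDR74 at 0.15, PHB at 0.17 and BOP1 at -0.05, and WDR12 went from -0.05 to 0.23. Without A3 and C1, 20 members were negative and 13 positive (median -0.04, where 50.8% of all genes were negative), and NCL was the only one at an unadjusted p under 0.05, where 7.52% of genes were.

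The 11 members with CACGTG in a promoter window had changes from -0.50 (UTP20) to 0.52 (RRP9), 6 positive and 5 negative (median 0.09). The 15 with an entry and no match ran from -0.35 to 0.42, 7 positive and 8 negative (median -0.01). With the trends removed the medians were -0.07 and -0.05. Both ends of the range thus held promoters with the E-box next to the start site, as in the sequences of RRP9 and UTP20 above.

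The other genes of these pathways were taken from 8 lists written by role, of which 193 genes were tested and 0 passed in limma. Of these 193, 83 were positive and 110 negative (median -0.05), with 10 higher and 12 lower at an unadjusted p under 0.05, where 11.9% of all tested genes had one. With APRIL 12 lay wholly above control and 7 wholly below, where 3.62% and 4.19% of all tested genes did. The genes named below had the smallest p of their list in each direction, so a low p or groups without overlap were selected for. Among 14 further genes of the RNA polymerase I machinery, 4 were positive and 10 negative (median -0.15). TAF1A, a subunit of its promoter selectivity factor, was at -0.53 ± 0.23, and ZNRD1, a small subunit of the polymerase, at 0.63 ± 0.35, highest in A3 at 7.47. The 2 were at -0.21 and 0.27 without A3 and C1, and at -0.59 and 0.71 with the trends removed. The median of this list was -0.10 with the trends removed and -0.03 without A3 and C1. Among 43 small subunit factors, 17 were positive and 26 negative (median -0.10). IMP3, a partner of the U3 snoRNA, was at 0.55 ± 0.23 and HEATR1, a large protein needed for rRNA transcription and processing, at -0.39 ± 0.14. IMP3 and HEATR1 were at 0.20 and -0.25 without A3 and C1, and at 0.24 and -0.11 with the trends removed. With the trends removed the median of the list was 0.01.

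Large subunit factors were 22 positive and 29 negative of 51 (median -0.02). WDR18, of the rixosome that releases pre-60S particles from the nucleolus, was at 0.68 ± 0.23 and the pre-60S factor RRP15 at -0.37 ± 0.13, whose APRIL values of 6.83, 6.83, 6.55 and 6.88 lay below the control values of 7.32, 7.13, 7.16 and 6.95. WDR18 was at 0.33 and RRP15 at -0.24 without A3 and C1, and with the trends removed they were at 0.18 and -0.07. Other snoRNP proteins were 6 and 6 of 12 (median -0.01), with NHP2, a core protein of the H/ACA particle, at 0.55 ± 0.25 and the assembly factor ZNHIT6 at -0.43 ± 0.20. NHP2 was at 0.21 and ZNHIT6 at -0.26 without A3 and C1, and at 0.13 and -0.18 with the trends removed. NHP2, of the same particle as DKC1, was highest in A3 at 8.38, and without that library its change was 0.27. The RNA exosome list had 7 positive and 11 negative of 18 (median -0.07), with EXOSC4 at 0.72 ± 0.35 and EXOSC8 at -0.32 ± 0.13, both subunits of the exosome ring. EXOSC4 was at 0.37 without A3, 0.12 without A3 and C1 and 0.33 with the trends removed. EXOSC8 was at -0.32 without A3 and C1 and -0.30 with the trends removed.

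In the MYC network of partners and antagonists, 12 were positive and 11 negative of 23 (median 0.02). RUVBL2, an ATPase that assembles snoRNPs and chromatin complexes, stood at 11.70, 11.44, 12.14 and 11.74 with APRIL and 10.94, 11.36, 11.28 and 11.42 in control. The groups of RUVBL2 did not overlap, with a change of 0.51 ± 0.16 (unadjusted p = 0.011, limma adjusted p = 0.4), 0.28 without A3 and C1, and 0.18 with the trends removed. MYCBP2, a large ubiquitin ligase that binds MYC, was at -0.57 ± 0.21, at -0.30 without A3 and C1 and at -0.26 with the trends removed. Polyamine and nucleotide synthesis had 10 positive and 13 negative of 23 (median -0.01), with ADSL, an enzyme of purine synthesis, at 0.31 ± 0.13 and ADSS at -0.24 ± 0.14. ADSL stood at 7.92, 7.77, 8.23 and 7.84 with APRIL and 7.56, 7.76, 7.58 and 7.64 in control. Its groups did not overlap, and its change was 0.18 without A3 and C1 and 0.43 with the trends removed. ADSS was then at -0.10 and -0.19. Prohibitin and mitochondrial transcription genes had 5 positive and 4 negative of 9 (median 0.05), with STOML2, a partner of prohibitins, at 0.58 ± 0.31 and C10orf2, the mitochondrial helicase, at -0.16 ± 0.13. STOML2 was at 0.22 without A3, 0.12 without A3 and C1 and 0.26 with the trends removed, and C10orf2 was at -0.21 without A3 and C1. Every one of these 16 companion genes had an adjusted p of 0.4 or more in limma.

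**Figure D5:**
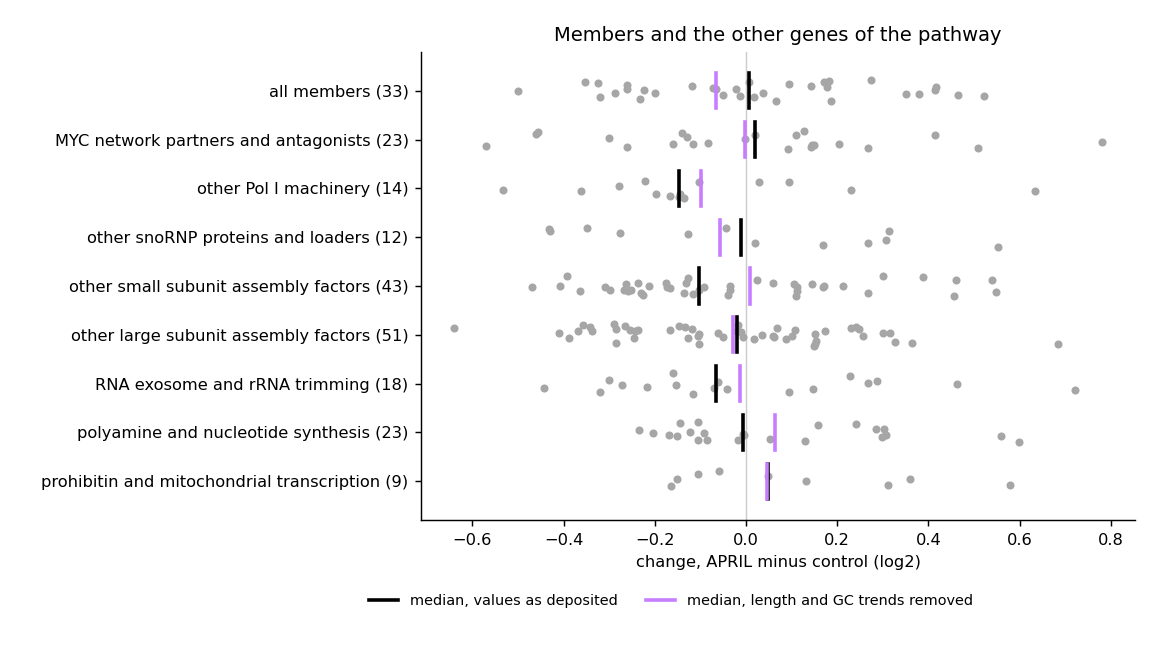
Change on the log2 scale (x axis, APRIL minus control) of the 33 members and of the tested genes of 8 further lists (numbers in brackets), 1 grey point per gene. Black bars are medians of the values as deposited and violet bars medians with the length and GC trends removed, and all 9 black bars lie between -0.15 and 0.05.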

How the data were processed

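RNA of MonoMac 6 cells was measured in 8 libraries, 4 with APRIL and 4 control. The library kit named in the labels' protocols does not mark strand. Per the submitters' processing notes, bcl2fastq and TopHat2 2.0.13 were used with build hg19. Which read counter, annotation and gene filter were used is not given in the sources used here. Per library, the authors deposited log2 values, scaled by a TMM factor per the file headers, with a p-value and a linear fold (ratio) for APRIL against control per gene, per the file headers. Samples were grouped by title and columns by header.

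Changes were tested with limma 3.58.1 in R 4.3.3 on the deposited log2 values (intensity trend, robust empirical Bayes, group as the only term, two-sided, Benjamini-Hochberg over 11257 genes, threshold 0.05). A gene was kept if 4 or more libraries reached a log2 value of 0, which left out 273. The fit was checked on simulated data with independent noise for each gene and added changes larger than those of the members. These data held no trend with length or GC content, so the check does not cover such trends. Whole reads were recovered for 11016 of 11530 genes (95.5%), from log2 of (reads + 0.5) divided by an integer for the gene, with 1 offset for each library, and for 1 of 500 genes with moved constants. The divisor differs between genes, so levels are not compared between genes. Length and GC trends were removed per library with splines of 5 degrees of freedom. No other per-library column was used. A further marker list is not reported here.

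Named genes were all members and, from each companion list, the gene with the smallest p in each direction. The members and lists were chosen with earlier results of these data known. Alternatives were each library left out, other filters, quality weights, median centring, no intensity trend, trend removal and voom. Leaving out A3 and C1 together was added after the data were seen. The rest was done in Python 3.11.15 with scipy 1.17.1, pandas 2.3.3 and numpy 2.4.6, and figures with matplotlib 3.10.9.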

Additional observations from a re-analysis of the deposited data

Results flagged for a closer look

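Single libraries far from the 3 others of their group were looked for in 98 groups of 4 (49 named genes, 2 groups each), taking those whose gap to the nearest library, over the group's range, exceeded Dixon's 95% critical value, which chance gives for about 1 in 20 groups. There were 9 such libraries, 5 of them A3 and 4 C1. The 49 genes share the same 8 libraries and 16 of them were named for a small p, so the count cannot be set against that rate. A3 was high for MRTO4 at 7.88 (next 7.09), TFB2M at 5.15 (next 4.77), NHP2 at 8.38 (next 7.38) and STOML2 at 9.71 (next 8.34), and low for RRP15 at 6.55 (next 6.83). C1 was low for BOP1 at 6.36 (next 7.02), SRM at 5.05 (next 5.52) and EXOSC4 at 5.81 (next 6.76), and high for ADSS at 5.14 (next 4.79).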

How the results depend on the processing

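No paired analysis was possible because the column headers carry no replicate numbers. No member passed the adjusted threshold under the 15 alternatives that held all 33, nor any of the 28 members in voom, which NCL, NPM1, NOLC1, ODC1 and PHB could not enter for want of recovered reads. With quality weights 4 genes of the whole table passed, 5 members had an unadjusted p under 0.05 (NCL, DKC1, WDR43, MRTO4 and ODC1, where 17% of all genes did), and MYC was at -0.074, POLR1C at -0.076, FBL at -0.065, NOP14 at 0.017 and PES1 at -0.030. The weights of A1 to A4 were 5.46, 1.33, 0.117 and 1.09, so the APRIL mean of that fit rested mostly on A1. Those of C1 to C4 were 0.316, 1.03, 1.56 and 2.12. Genes with an unadjusted p under 0.05 numbered 894 with the trends removed, 846 without A3 and C1, and 507 to 2247 with each library left out. For members that number was 1 without those 2 libraries and 0 to 10 with each left out. With the trends removed 8 members were positive and their median was -0.065, the small subunit list was at 0.0085, and MYC was at -0.15, FBL at -0.20, RRP12 at -0.028, PES1 at -0.059, BOP1 at -0.049, WDR12 at 0.23, NOP16 at -0.033, RRS1 at -0.10, PPAN at -0.26, PA2G4 at -0.048 and SRM at -0.042. Without A3 and C1 MYC was at -0.050, POLR1C at -0.092, FBL at -0.10 and PES1 at -0.036, the Pol I list at -0.030 and the small subunit list at -0.0083. Centring on medians put MYC at -0.0034, and the stricter filter put the MYC network list at -0.044. With each library left out the medians ran from -0.036 to 0.10 for that list and -0.146 to -0.020 for the small subunit list. The changes ran from -0.12 to 0.086 for MYC, -0.044 to 0.12 for POLR1C, -0.11 to 0.031 for NPM1, -0.036 to 0.19 for FBL, -0.067 to 0.034 for NOP56, -0.0068 to 0.18 for RRP12, -0.099 to 0.036 for WDR12, -0.22 to 0.025 for NOP2, -0.019 to 0.051 for PA2G4 and -0.13 to 0.044 for CAD. The cause was not tested. The median half-width of the 95% interval of a member's change was 0.331 on the log2 scale, which limits what these libraries can resolve.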
